A study of Mus musculus with 6 samples.

Results

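Abca1, Abcg1, Apoe and Cd36 are the 4 genes of cholesterol efflux and lipid handling described here, out of 770 genes on the panel. They were taken by symbol, as a pair of cholesterol exporters, a lipoprotein ligand and a fatty acid receptor. All 4 entered the comparison, in which 548 genes had enough counts to be tested. All samples were tumours of a genetically engineered mouse model of melanoma, in which the tumours carry an activated Braf kinase. In every sample tumours had been started at 10 weeks of age by painting 4-hydroxy-tamoxifen on shaved back skin. What the mice behind the 3 Control samples received is not stated in the labels. The 3 samples called 4'-BR came from mice injected intraperitoneally with 4′-bromo-resveratrol at 30 mg/kg on 3 days a week for 5 weeks. The labels do not give the promoter that drives recombination. They put the number of mice at 6 but do not tie a sample to a mouse, so a p-value here covers only the spread among samples, which may in part be technical. Transcripts were counted on the nCounter platform, which hybridises barcoded probes to RNA without amplification.

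Cells that take up more cholesterol than they use export it, and the export pumps are switched on by the LXR receptors, nuclear receptors that bind oxidised sterols and act as pairs with RXR. ABCA1 passes cholesterol and phospholipid to lipid-poor apolipoproteins, ABCG1 passes cholesterol to high-density lipoprotein particles, and apolipoprotein E carries the lipid and is bound by receptors such as LRP1. In macrophages Abca1, Abcg1 and Apoe are known LXR targets, while CD36 imports long-chain fatty acids and oxidised lipoproteins and is a known target of PPARγ. In mouse, the deacetylase Sirt1 is known to act on LXR proteins, and 4′-bromo-resveratrol, a bromine-bearing analogue of resveratrol, is described as an inhibitor of Sirt1 and Sirt3. The comparison gives the level of the 4 transcripts in tumours with and without the compound. Sirt1, Sirt3 and the LXR genes themselves were not analysed here.

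In GRCm38.p6 the RefSeq table places Abca1 (NM_013454.3) on chromosome 4 from 53030789 to 53159988, Abcg1 (NM_009593.1) on chromosome 17 from 31057694 to 31117984, Apoe (NM_009696.3) on chromosome 7 from 19696244 to 19701310 and Cd36 (NM_007643.3) on chromosome 5 from 17781690 to 17888959. The 250 bases before the start in RefSeq's promoter table, on GRCm38.p6, are shown for Abca1, the exporter with the largest difference, and for Cd36, the importer. They lie at chr4:53159896-53160145 and chr5:17835897-17836146, both on the minus strand and written 5′ to 3′. The start in that table is not the outer end of the gene's span but lies 93 bases inside it for Abca1 and 53063 bases inside it for Cd36, so the Cd36 window is within the gene. Capitals mark matches to 4 motifs that were searched on both strands.
Abca1: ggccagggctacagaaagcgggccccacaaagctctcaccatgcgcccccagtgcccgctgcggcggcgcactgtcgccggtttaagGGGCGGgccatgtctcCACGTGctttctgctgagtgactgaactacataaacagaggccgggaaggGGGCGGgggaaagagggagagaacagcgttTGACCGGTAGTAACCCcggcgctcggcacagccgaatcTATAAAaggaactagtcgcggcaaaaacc
Cd36: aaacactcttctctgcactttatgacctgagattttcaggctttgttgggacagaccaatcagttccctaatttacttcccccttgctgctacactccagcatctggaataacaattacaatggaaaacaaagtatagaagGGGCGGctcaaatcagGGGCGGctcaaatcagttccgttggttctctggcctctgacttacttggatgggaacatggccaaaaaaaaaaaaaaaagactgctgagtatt
The motifs were the LXR-type direct repeat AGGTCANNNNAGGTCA with up to 3 mismatches, the TATA box TATAAA, the GC box GGGCGG and the E-box CACGTG. In Abca1 the direct repeat lies 67 to 52 bases before the start as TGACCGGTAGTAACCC, which on the other strand reads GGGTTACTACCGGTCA and has 3 mismatches. A match of that quality was held by 21.9% of the 32851 promoter windows of 300 bases in the table, so it is a common one. No window of Apoe or Cd36 held it, which says only that these letters are not there. Abca1 also held a TATA box at 29 bases, GC boxes at 163 and 97 bases and an E-box at 147 bases before the start, and Cd36 held GC boxes at 109 and 93 bases. Of the 3 Apoe windows 1 held a pair of overlapping TATA boxes on opposite strands, at 100 and 96 bases before its start. Over all windows 13.6% held the TATA box, 35.7% the GC box and 7.15% the E-box. Windows were found for 3 of the 4 genes (Abca1, Apoe and Cd36), and none of the matches is evidence of binding.

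None of the 4 genes passed the test between 4'-BR and Control tumours, and none of their groups separated. The 5 samples other than 4'-BR 2 lay close together in each gene, and 4'-BR 2 was the highest sample in all 4. Levels are counts scaled by the geometric mean of 20 housekeeping probes, and they compare samples for a gene but not genes with each other, because probes differ in efficiency. In bulk tumour RNA, fewer cells of a type and less RNA per cell cannot be told apart. Raw totals were 322485 to 472402 in Control and 118221 to 254862 in 4'-BR samples, with no overlap, so depth and treatment cannot be told apart, and treated values carry more counting error. Replicates differed by more than counting noise in each pair.

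Abca1, the exporter to lipid-poor apolipoproteins, stood at 522, 654 and 513 scaled counts in Control samples 1 to 3. It stood at 591, 1182 and 615 in 4'-BR samples 1 to 3. The treated group overlapped the control group, since 4'-BR 1 and 4'-BR 3 lay below Control 2, and 4'-BR 2 was 1.81 times the next highest sample. The means were 563 ± 79.1 in Control and 796 ± 334 in 4'-BR (SD, n = 3 each), and the fitted fold was 1.41 with a 95% interval of 0.935 to 2.13 (log2 fold change 0.50, SE 0.27, edgeR adjusted p = 0.299 over 548 genes). A rise of up to 2.13-fold is therefore inside the interval, as is a small fall. Without 4'-BR 2 the log2 fold change was 0.10 (95% interval −0.30 to 0.50, edgeR adjusted p = 0.732).

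Abcg1, the exporter to high-density lipoprotein, was the steadiest of the 4 in control tumours, at 373, 356 and 371 scaled counts. The 4'-BR samples 1 to 3 stood at 355, 538 and 405. The lowest value of all 6 was thus a treated sample, as were the highest 2. The means were 367 ± 9.01 and 433 ± 94.8 (SD, n = 3 each), a coefficient of variation of 2.46% in Control and 21.9% in 4'-BR. The fitted fold was 1.18 with a 95% interval of 0.887 to 1.57 (log2 fold change 0.24, SE 0.18, edgeR adjusted p = 0.458). Without 4'-BR 2 the log2 fold change was 0.05 (95% interval −0.31 to 0.40).

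Apoe, the lipoprotein ligand, which melanoma cells and macrophages both can secrete, had a high count on its probe. In Control samples it stood at 15399, 14521 and 14022 scaled counts. In 4'-BR samples 1 to 3 it stood at 14075, 25357 and 13774. The first and the last of these lay in or just below the control range, and 4'-BR 2 was 1.65 times the highest other sample. Apoe took 5.17% to 5.79% of all panel counts in the Control samples, 5.78% in 4'-BR 1, 9.55% in 4'-BR 2 and 6.21% in 4'-BR 3. The means were 14647 ± 697 and 17735 ± 6603 scaled counts (SD, n = 3 each), and the fitted fold was 1.21 with a 95% interval of 0.826 to 1.77 (log2 fold change 0.28, SE 0.25, edgeR adjusted p = 0.511). Without 4'-BR 2 the difference turned to −0.07 on the log2 scale (95% interval −0.37 to 0.22).

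Cd36, the fatty acid and oxidised lipoprotein receptor, stood at 149, 161 and 148 scaled counts in Control samples. The 4'-BR samples 1 to 3 stood at 138, 227 and 146, so the groups overlapped with 4'-BR 2 above and both other treated samples below all controls. It was the gene of lowest raw count among the 4, with 78 counts in 4'-BR 3. The exact 95% Poisson interval, which covers counting error only, was 116 to 183 scaled counts there, 192 to 267 in 4'-BR 2 and 143 to 182 in Control 2, the next highest sample. The means were 153 ± 7.35 and 170 ± 49.3 (SD, n = 3 each), and the fitted fold was 1.11 with a 95% interval of 0.796 to 1.55 (log2 fold change 0.15, SE 0.21, edgeR adjusted p = 0.679). Without 4'-BR 2 it turned to −0.11 (95% interval −0.49 to 0.28).

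**Figure D1:**
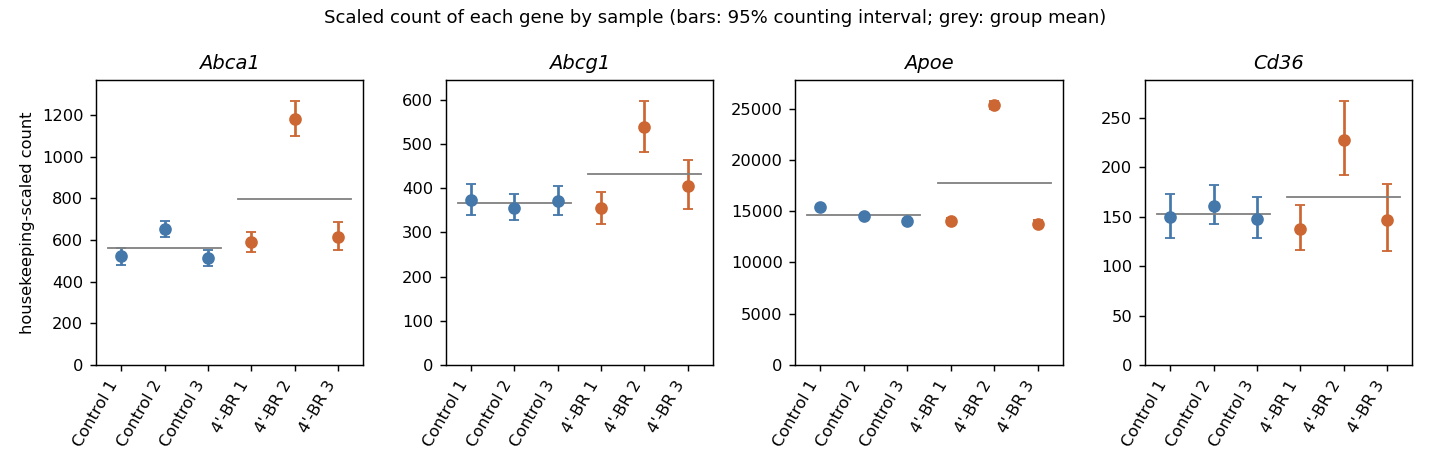
Housekeeping-scaled count of Abca1, Abcg1, Apoe and Cd36 in each of the 6 samples (Control blue, 4'-BR orange), with 95% Poisson counting intervals as bars and group means as grey lines. In all 4 panels 4'-BR 2 is the highest sample, and 4'-BR 1 and 4'-BR 3 lie near the Control samples.

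Among the 548 tested genes 38 passed an adjusted p of 0.05 (6.93%), 7 higher (1.28%) and 31 lower (5.66%) in 4'-BR, against 0 of the 4. With housekeeping scaling and all 6 samples no member had an unadjusted p under 0.05 in edgeR, DESeq2 or limma, where 23.4% of tested genes did in edgeR. Under other scalings edgeR put Abca1 below that unadjusted level with TMM (adjusted p = 0.180), median of ratios (0.177) and total count (0.109), and Abcg1 with total count (0.145). The groups did not overlap in 30.5% of tested genes and in 0 of the 4. By p-value Abca1 ranked 168, Abcg1 270, Apoe 310 and Cd36 400 of 548. All 4 fold changes were above the median of all tested genes, which was −0.04. Without 4'-BR 2 only 3 were, and relative to the median of that fit the log2 fold changes were small. They were 0.19 for Abca1, 0.14 for Abcg1, 0.02 for Apoe and −0.02 for Cd36. An exact two-sided permutation test of log2 scaled counts gave p = 0.3 for Abca1, 0.4 for Abcg1, 0.9 for Apoe and 1 for Cd36, where 3 against 3 samples cannot go below 0.1. With 3 samples a group and 1 that stood apart, differences inside these intervals were not detectable.

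**Figure D2:**
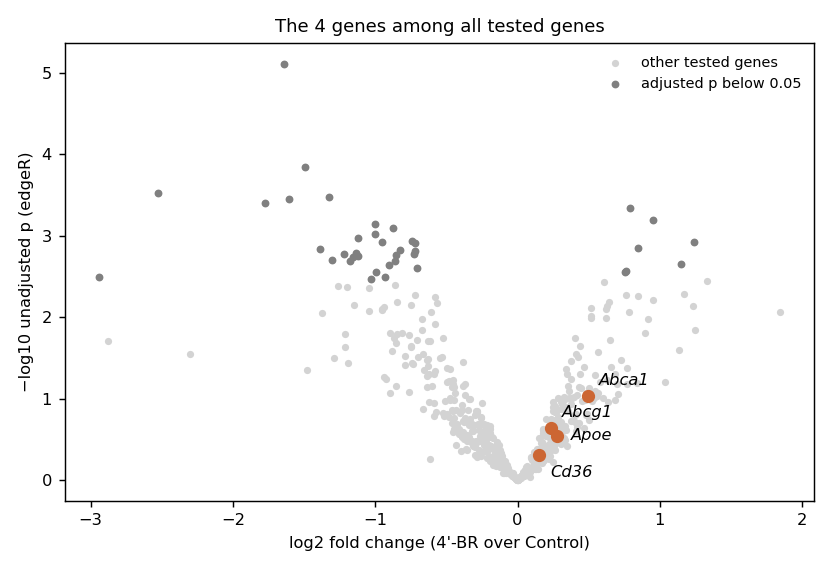
Log2 fold change (4'-BR over Control, horizontal) against −log10 of the unadjusted edgeR p (vertical) for 548 tested genes, with the 38 that passed in dark grey and the 4 genes in orange. The 4 lie right of 0, low on the plot and among the genes that did not pass.

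Scaling moved the sign. Scaled to the positive control probes, which carry synthetic RNA and do not follow the amount of tumour RNA, all 4 log2 fold changes were negative, at −0.21 for Abca1, −0.43 for Abcg1, −0.41 for Apoe and −0.52 for Cd36, and the median of all 548 tested genes was −0.67. Scaled to the total count, with that median at 0.12, they were 0.63, 0.38, 0.41 and 0.29. Relative to the median of all genes, with 4'-BR 2 included, they were 0.46, 0.25, 0.26 and 0.15 under the former and 0.52, 0.27, 0.29 and 0.18 under the latter. None passed under either (edgeR adjusted p from 0.109 to 0.496), and 4'-BR 2 was the highest sample for all 4 under 5 of the 6 scalings, the positive control probes being the exception, with Control 2 highest for all 4.

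**Figure D3:**
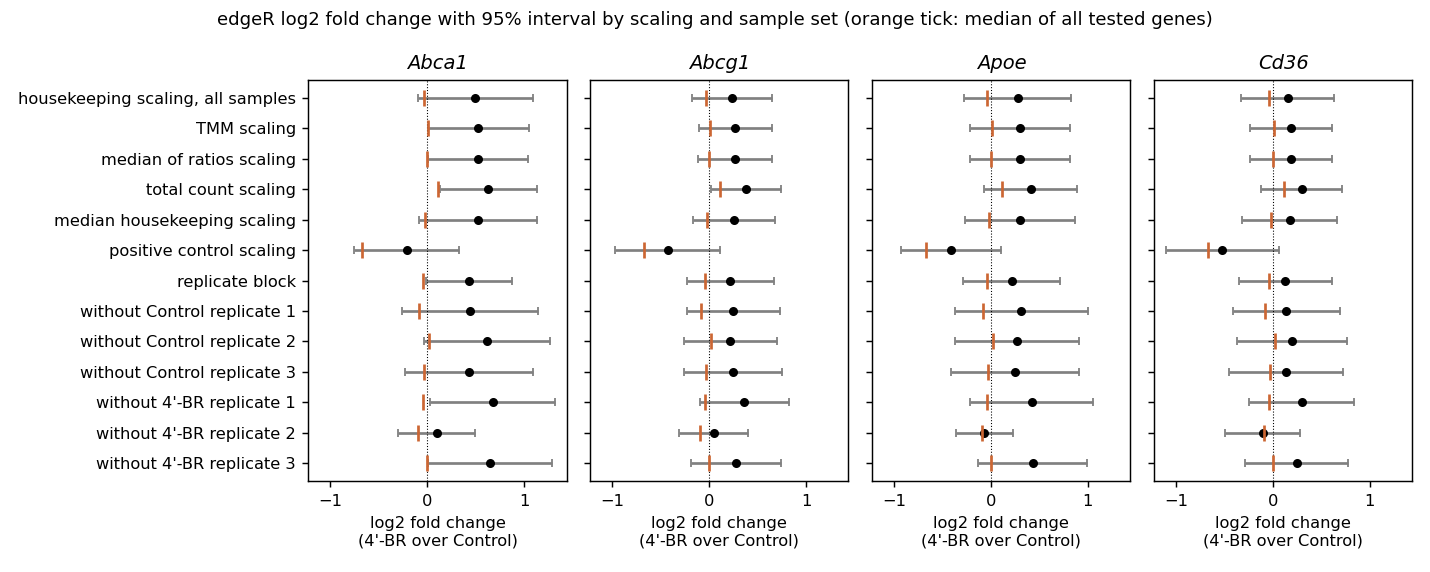
Log2 fold change (4'-BR over Control) with its 95% interval from edgeR for each gene under 6 scalings, with the replicate number as a block and without each sample in turn, with the median of all tested genes as an orange tick. The points without 4'-BR replicate 2 lie close to 0 in all 4 panels, and those with positive control scaling lie left of 0.

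How 4'-BR 2 stood against the other 5 samples was described after these values were seen. On the log2(scaled count + 1) scale it lay above their mean by 1.03 for Abca1 (2.05-fold), 0.53 for Abcg1 (1.45-fold), 0.82 for Apoe (1.77-fold) and 0.61 for Cd36 (1.53-fold). The median over all tested genes was 0.08, with a 5th to 95th percentile of −0.77 to 0.73. It was the highest sample in 132 tested genes (24.1%), close to the 140 of Control 2. In 50 genes (9.12%) it lay at least 1.5-fold above the mean of the other 5, among them Abca1, Apoe and Cd36. By distance above that mean Abca1 ranked 12 and Apoe 24 from the top of all tested genes, Cd36 43 and Abcg1 67.

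Both measured markers of melanocytes were highest in 4'-BR 2. So were 24.1% of all tested genes, with 2 of 9 endothelial and 2 of 12 macrophage markers. Of 9 melanocyte genes listed 2 were measured, and the pigment enzyme genes that define the lineage were not analysed here. S100b, a calcium-binding protein of melanocytes and nerve sheath, stood at 486, 614 and 448 scaled counts in Control and 469, 810 and 289 in 4'-BR samples. Kit, the stem cell factor receptor of melanocytes and mast cells, stood at 33.8, 16.7 and 21.9 in Control and 23.9, 90.2 and 35.6 in 4'-BR samples. Both were thus highest in 4'-BR 2, as were the 4 genes, and neither passed the test (edgeR adjusted p = 0.972 for S100b and 0.244 for Kit). The summed level of the pair, most of it from S100b, was 470.4 to 630.4 in Control and 325 to 900.4 in 4'-BR samples. The part of melanocyte content in the 4 levels was not tested.

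Within a sample a ratio of 2 genes does not depend on scaling, and it showed how far the 4 moved apart. Abca1 over Cd36, exporter over importer, had log2 ratios of 1.81, 2.02 and 1.80 in Control and 2.10, 2.38 and 2.07 in 4'-BR samples 1 to 3. These groups did not overlap, and the ratio was 1.24-fold higher in 4'-BR (log2 difference 0.31, exact permutation p = 0.1, the smallest possible, and 0.6 adjusted over 6 pairs), higher in 3 of 3 treated samples. The difference was 0.21 without 4'-BR 2. The separation was narrow, with the highest Control sample at 2.02 (Control 2) and the lowest treated sample at 2.07 (4'-BR 3). Cd36 in 4'-BR 3 rests on 78 raw counts, with a Poisson interval of 116 to 183 scaled counts. On the log2 scale that interval is wider than the gap, so counting error alone can bridge it. How often ratios of other panel genes separate was not tested. The other 5 pairs overlapped between groups, with log2 differences of 0.22 for Abca1 over Apoe, 0.21 for Abca1 over Abcg1, 0.10 for Abcg1 over Cd36, 0.10 for Apoe over Cd36 and 0.00056 for Abcg1 over Apoe (exact permutation p from 0.3 to 1). The tightest pair was Apoe over Cd36, whose ratio spanned 1.24-fold over the 6 samples, and the loosest was Abca1 over Abcg1, at 1.59-fold.

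The genes of most similar pattern were taken by the root mean square difference of log2(scaled count + 1), centred on each gene's mean over the 6 samples. For Abca1 they were Fadd, an adaptor of death receptors (0.13), Vegfc, a growth factor of lymphatic vessels (0.16), and Apoe (0.17). Tank, a regulator of TRAF signalling, came first for Abcg1 (0.06), Apoe (0.10) and Cd36 (0.07). The next were Ly96, the co-receptor of Tlr4, and Igf1r, a growth factor receptor, for Abcg1 (0.09 each), Cd36 and Ifih1, an RNA sensor, for Apoe (0.10 and 0.11), and Irak2, a kinase of interleukin-1 signalling, and Ifih1 for Cd36 (0.08 each). Tank stood at 265, 268 and 268 scaled counts in Control and 267, 407 and 270.1 in 4'-BR samples, the same shape of a single high sample. In each of the genes named here 4'-BR 2 was the highest sample, which the choice by similar pattern favours, so it is not a separate result.

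Macrophages can express all 4 genes, and their markers were lower in the treated tumours. Of 12 macrophage markers, all tested, 5 fell (Lyz2, Itgam, C1qa, C1qb and Mrc1), none rose and the median log2 fold change was −0.63, against −0.04 for all genes. Their summed level was 9115 to 10981 scaled counts in Control and 4241 to 6353 in 4'-BR samples, and none was at 0. Lyz2, the myeloid lysozyme, was at 7047 ± 1356 and 3513 ± 790 (SD, n = 3 each) and made up most of that sum. The geometric mean of the 12 markers, which weighs them alike, was 188, 233 and 203 in Control and 130, 154 and 108 in 4'-BR samples. In 4'-BR 2 the sum and the geometric mean were the highest of the treated samples and below all controls. The macrophage list was not alone in this. Of 7 fibroblast markers 5 fell (Col1a1, Col3a1, Fap, Fn1 and Ccl11), none rose and the median was −0.93. The summed level of the 7, most of it from Col1a1 and Col3a1, was 23826 to 32913 scaled counts in Control and 10660 to 15716 in 4'-BR samples. Of 9 keratinocyte and epithelial markers 3 passed as higher (Itgb4, Ccl27a and F2rl1) and none as lower. By sign 6 were higher and 3 lower, and the median was 0.51. Among the 3 lower was Cxcl14, at 2517 ± 347 and 1682 ± 160 scaled counts, without overlap (−0.58, edgeR adjusted p = 0.0635). Positive control scaling gave a median of −0.09, with none called higher and 2 called lower. The summed level of the 9 was 7146 to 7435 in Control and 7545 to 8681 in 4'-BR samples. The part of these cell types in the 4 levels was not tested.

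The ratio of each gene to the geometric mean of the 12 macrophage markers, a measure chosen after these values were seen, was higher in 4'-BR in all 4. For Abca1 the log2 ratio was 1.47, 1.49 and 1.34 in Control and 2.18, 2.94 and 2.51 in 4'-BR samples. For Cd36 it was −0.33, −0.53 and −0.46 in Control and 0.08, 0.56 and 0.44 in 4'-BR samples. The groups did not overlap for any of the 4, with differences of 1.11 for Abca1, 0.89 for Abcg1, 0.89 for Apoe and 0.80 for Cd36 (exact permutation p = 0.1 each, the smallest possible, and 0.1 adjusted over the 4). Without 4'-BR 2 they were 0.91, 0.85, 0.73 and 0.70. Over all tested genes the groups did not overlap in 59.1% for this ratio, and 57.5% separated upwards, so the result is not particular to the 4.

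**Figure D4:**
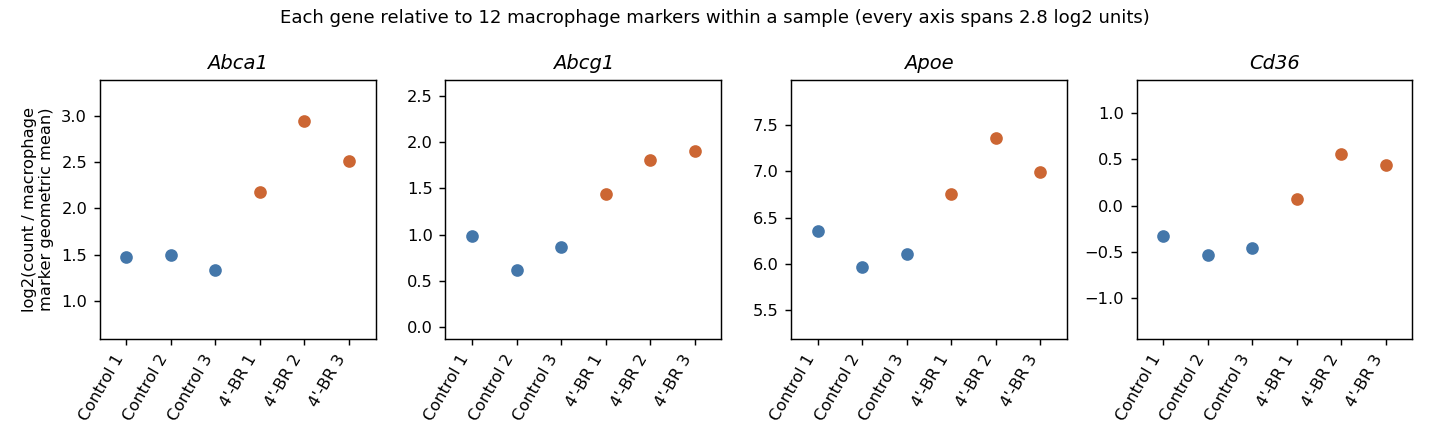
Log2 ratio of each gene's count to the geometric mean of 12 macrophage markers in the same sample, for Control (blue) and 4'-BR (orange) samples, with axes of equal span. The treated samples lie above all Control samples in each panel.

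Fat cells, endothelium and platelets also carry CD36. Of 7 adipocyte genes 2 were measured. Cfd, the adipocyte protease adipsin, stood at 129, 301 and 251 scaled counts in Control and 258, 359 and 399.5 in 4'-BR samples (log2 fold change 0.57, edgeR adjusted p = 0.289). Pparg, the nuclear receptor of fat cell differentiation that also drives Cd36, stood at 40.4, 33.3 and 34.4 in Control and 43.0, 54.4 and 33.8 in 4'-BR samples (log2 fold change 0.29, edgeR adjusted p = 0.524). Its highest sample was 4'-BR 2, as for Cd36 and for 24.1% of all tested genes, and its mean raw count was only 41.7. Of 9 endothelial genes none passed, with a median of −0.22 and a summed level of 2841 to 3108 in Control and 1497 to 2857 in 4'-BR samples. Both measured platelet genes, Itga2b and Ppbp, had mean counts under the minimum of 20. The part of these cells in the Cd36 level was not tested.

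The panel held other genes of lipid transport and response, in lists drawn up by function. The lists also count Abca1, Abcg1, Apoe or Cd36 where they belong. The ABC transporter list held Abca1, Abcg1, Abcb1a, Abcf1, Tap1 and Tap2, so it is not independent of Abca1 and Abcg1. Of these 6 genes, all tested, none passed, all 6 log2 fold changes were positive and the median was 0.39. Positive control scaling left 2 positive and a median of −0.29. The lack of a call depended on the scaling, since 1 of the 6 passed under TMM, median-of-ratios and total count scaling. Tap1, which moves peptides for MHC class I loading and carries no lipid, was at 260 ± 53.0 and 401 ± 33.5 scaled counts (log2 fold change 0.62, edgeR adjusted p = 0.0719). It was the gene that passed, with edgeR adjusted p from 0.0386 to 0.0422 under those 3 scalings, and it also passed with DESeq2 (adjusted p = 0.0391). Abcb1a, the multidrug exporter P-glycoprotein, was at 17.0 ± 7.44 and 31.5 ± 10.7 (0.84, edgeR adjusted p = 0.245). Of the regulator list 2 of 18 genes were measured, and neither passed. Beside Pparg this was Rora, a nuclear receptor that binds sterols, at 418 ± 105 and 568 ± 10.9 (0.44, edgeR adjusted p = 0.212).

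Lipoprotein and scavenger receptors and their ligands moved in both directions. Of 15 measured genes in the list 12 were tested, of which 1 rose and 2 fell, and the median was −0.21. Cxcl16, a chemokine whose membrane form binds oxidised lipoprotein, rose from 101 ± 11.2 to 171 ± 24.4 scaled counts (log2 fold change 0.76, edgeR adjusted p = 0.0440), and with positive control scaling it was at 0.14 and did not pass. Colec12, a scavenger collectin, fell from 162 ± 50.4 to 78.2 ± 17.4 (−1.03, edgeR adjusted p = 0.0496). Its call was at the threshold and was lost under TMM (edgeR adjusted p = 0.0513), total count (0.0585) and median housekeeping scaling (0.0574), with a minimum of 50 counts (0.0501) and with limma (0.0743). Mrc1, the mannose receptor of macrophages, fell from 382 ± 32.7 to 230 ± 32.2 (−0.73, edgeR adjusted p = 0.0387). Lrp1, a receptor for apolipoprotein E, was at 1622 ± 230 and 1285 ± 230 (−0.34, edgeR adjusted p = 0.307), and Cd163, the haemoglobin scavenger receptor, was at −0.39 (edgeR adjusted p = 0.366). Trem2, a macrophage receptor that binds lipids and apolipoprotein E, was at 142 ± 16.6 and 117 ± 11.1 (−0.29, edgeR adjusted p = 0.367).

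In the list of CD36 ligands, co-receptors and signalling partners, which counts Cd36 itself, 5 of 12 tested genes fell and none rose. Over all tested genes 5.66% fell and 1.28% rose. The list median was −0.53, against −0.04 for all genes. Thbs1, thrombospondin-1, which binds CD36 on endothelium, fell from 1121 ± 88.9 to 679 ± 89.2 scaled counts. Fyn and Lyn, the Src-family kinases that signal from CD36, fell from 638 ± 31.9 to 385 ± 60.6 and from 158 ± 29.6 to 86.6 ± 8.05. Itgb1, an integrin chain found with CD36 at the membrane, fell from 1972 ± 176 to 1205 ± 220, and Nlrp3, the inflammasome sensor engaged by lipid taken up through CD36, fell from 94.5 ± 37.3 to 27.1 ± 5.56 (edgeR adjusted p from 0.0356 to 0.0431 for the 5). Total count scaling ended the call of Itgb1 (edgeR adjusted p = 0.0518). Fibroblast markers (median −0.93), whose matrix genes Fn1 (−1.64) and Col3a1 (−1.22) are among those that fell, and macrophage markers (median −0.63) moved with this list. Epithelial markers had a positive median (0.51), though 3 of 9 were lower. The part of these cell types in the CD36 partner list was not tested. Tlr2, which shares ligands with CD36, was at 33.4 ± 3.17 and 19.8 ± 3.27 (edgeR adjusted p = 0.135), and the tetraspanin Cd9 at 1935 ± 313 and 2421 ± 281 (edgeR adjusted p = 0.303). Each of these genes has many roles apart from CD36, and Cd36 itself did not pass.

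Genes of lipid-laden macrophages and of LXR-repressed inflammation gave 1 call between them. None of 8 genes tested in the former list passed (median −0.12, and 0.03 with total count scaling), but some did under other settings. Positive control scaling called 4 of the 8 lower (median −0.77), where it called 243 of all 548 tested genes lower (median −0.67). Spp1, osteopontin, was at 252 ± 59.6 and 111 ± 52.7 scaled counts (log2 fold change −1.20, edgeR adjusted p = 0.0539). It passed under TMM (edgeR adjusted p = 0.0355), median-of-ratios (0.0351), total count (0.0474) and positive control scaling (9.15e-06), with no count minimum (0.0433), with the replicate block (0.0448), without Control 3 (0.0448) and with DESeq2 (0.00728). Lgals3, galectin-3, was at 4110 ± 326 and 5870 ± 379 (0.51, edgeR adjusted p = 0.0718), and passed under total count scaling (edgeR adjusted p = 0.0374) and with DESeq2 (0.0163), while positive control scaling turned it to −0.11. Of 10 inflammatory genes that LXR agonists repress in mouse macrophages 7 were tested, 1 fell, none rose and the median was −0.33. That was Il1b, the gene of interleukin-1β, at 111, 172 and 54.1 scaled counts in Control and 21.0, 24.9 and 11.3 in 4'-BR samples (log2 fold change −2.53, edgeR adjusted p = 0.0356). Negative probes averaged 3.46, 5.83 and 7.50 scaled counts in 4'-BR samples 1 to 3. The treated Il1b values are thus low counts, that of 4'-BR 3 near background, and the size of the fall is uncertain. Ptgs2, the inducible cyclooxygenase, was at 127 ± 37.0 and 68.9 ± 24.4 (−0.90, edgeR adjusted p = 0.111) and Il1a at 31.7 ± 6.96 and 45.4 ± 13.9 (0.48, edgeR adjusted p = 0.383). Of 2 tested lipid mediator genes, Ptgs2 and the phospholipase gene Pla2g6 (−0.01, edgeR adjusted p = 0.985), neither passed. All calls named here were lost without 4'-BR 1 or without 4'-BR 2, where edgeR called 0 of the 548 genes (107 and 116 at an unadjusted p under 0.05), and 1 gene in all was called without Control 1 or without 4'-BR 3.

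**Figure D5:**
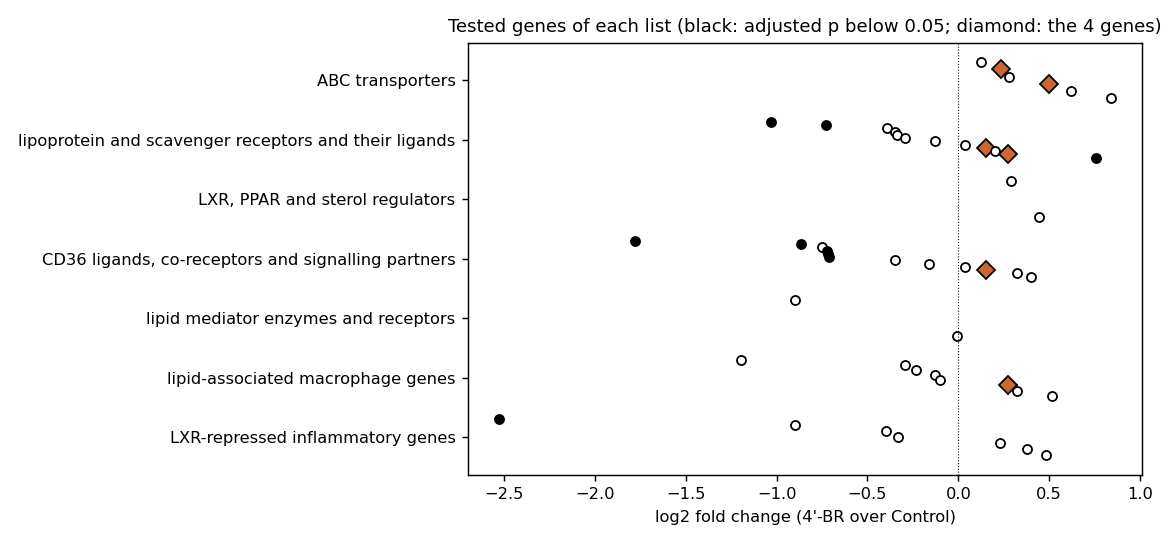
Log2 fold change (4'-BR over Control, horizontal) of every tested gene in 7 lists, filled black where the edgeR adjusted p was below 0.05, with Abca1, Abcg1, Apoe and Cd36 as orange diamonds. The diamonds lie between 0.15 and 0.50, none of them past the test, while the black points of the CD36 partner list lie left of 0.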

How the data were processed

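Per the file headers, the authors' raw table gives unscaled barcode counts, by probe and sample. It has 750 endogenous, 20 housekeeping, 8 negative and 6 positive probes, and 1 blank row that was left out. The authors' series table gives 1 normalized score for every gene, and each value lay within 1 of the raw count times a sample factor proportional to the housekeeping scaling used here. The software behind either table is not stated in the labels.

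Raw counts were fitted with edgeR 4.0.16 in R 4.3.3 (glmQLFit, glmQLFTest), scaled by the geometric mean of the housekeeping probes. Genes were tested where the raw count averaged 20 or more over 6 samples, which set aside 222 of 770. Two-sided p-values were adjusted over 548 genes by Benjamini-Hochberg, and the threshold was 0.05. SEs come from the F statistic, and 95% intervals from its degrees of freedom. Ratios were tested by exact permutation over samples. Alternatives used DESeq2 1.42.0, limma 3.58.1 on log2(value + 1), and other scalings, minima and sample sets. The fit with background subtracted also used limma, on log2 values without the added 1. The fold intervals assume that samples of both groups vary alike. Genes named from lists were those past the threshold and the 2 of lowest p in each list, and Trem2 was added, after its value was seen, for its binding of apolipoprotein E. Marker genes are given by level. The 4 genes, lists and tests were chosen with earlier results of these data known. Part of the genotype of the mice is not reported here.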

Additional observations from a re-analysis of the deposited data

How the results depend on the processing

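None of the 4 genes passed the test in any of 19 alternatives, with edgeR, DESeq2 or limma adjusted p from 0.109 to 0.732 for Abca1, 0.145 to 0.852 for Abcg1, 0.172 to 0.728 for Apoe and 0.128 to 0.796 for Cd36. At an unadjusted p under 0.05 stood Abca1 under TMM and median-of-ratios scaling, without 4'-BR 1 and without 4'-BR 3, and Abca1 and Abcg1 with total count scaling. Positive control scaling reversed all 4, to −0.21 for Abca1, −0.43 for Abcg1, −0.41 for Apoe and −0.52 for Cd36. Leaving out single samples gave 0.10 to 0.68 for Abca1, 0.05 to 0.36 for Abcg1, −0.073 to 0.43 for Apoe and −0.11 to 0.29 for Cd36, the lowest of each without 4'-BR 2. Abcg1 over Apoe ranged from −0.12 to 0.12 without single samples. Positive control scaling also reversed Cd9 (−0.28), Il1a (−0.16), Lgals3 (−0.11), Pparg (−0.36) and Rora (−0.21). Pla2g6, at −0.01, turned to 0.049 (TMM), 0.0427 (median of ratios), 0.147 (total count) and 0.0086 (median housekeeping), and ranged from −0.26 to 0.17 without single samples. Of the 9 calls named in the lipid lists, 7 were lost with limma (Il1b and Nlrp3 passed) and 9 with limma after background was subtracted. The replicate block lost 4 (Cxcl16, Itgb1, Lyn and Mrc1). The cause of these shifts was not tested.

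Over all genes the 7 higher and 31 lower calls became 19 and 36 (TMM), 19 and 37 (median of ratios) and 30 and 30 (total count). Positive control scaling gave 1 and 243, and DESeq2 gave 21 and 48. They were 2 and 7 with limma on either table, and 0 and 3 with limma after background was subtracted. With the replicate block, which leaves fewer residual degrees of freedom, they were 3 and 27. Without single samples they ranged from 0 to 4 higher and 0 to 31 lower, with 0 in both directions without 4'-BR 1 or 4'-BR 2. With the replicate block the 4 genes were at 0.43, 0.22, 0.21 and 0.13, none past the test. No label pairs samples by replicate number, and deviations of same-numbered samples from their group means correlated at −0.08, 0.08 and 0.21. Not every control sample correlated best with its own number.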
